A study of Rattus norvegicus with 10 samples.

Results

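The genes described here are 41 listed genes of DNA repair and damage signalling, which were looked up among the probe sets of the array that carry 1 gene symbol in the annotation. A probe set is a group of probes for 1 transcript. Of the 41 genes, 40 were measured, by 53 probe sets, out of 14217 genes and 31042 probe sets tested; Atm was not analysed here. Where a gene had several probe sets, the brightest on average stood for it. By role, 9 genes belonged to base excision, 9 to nucleotide excision, 2 to mismatch repair, 9 to homologous recombination with the Fanconi pathway, 4 to end joining and 4 to checkpoint signalling. The lesion bypass genes Rad18 and Polk and the direct reversal gene Mgmt were described apart.

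DNA repair and damage signalling comprise the enzymes that remove damaged bases, rejoin broken strands and hold the cell cycle while this is done. In base excision repair a glycosylase removes a damaged base and the gap is cut, filled and sealed, whereas nucleotide excision repair cuts out a stretch of the strand around a bulky lesion. Double-strand breaks are repaired by homologous recombination, which copies the sister strand in S and G2 phase, or by end joining, and checkpoint kinases relay the signal from the lesion to the cell cycle. The roles named here for single genes are known mainly from the human, mouse and yeast proteins.

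The arrays came from the transitional epithelium of the nasal cavity of male F344/N rats, 5 to 6 weeks old when the study began, cut from sections by laser capture microdissection. The treated group received N,N-dimethyl-p-toluidine (DMPT), an aromatic amine used to cure acrylic cements, at 120 mg/kg/day by gavage in corn oil for 5 days, and the vehicle group received corn oil alone. Both groups had the same strain, sex and age, and there were 5 arrays per group, 1 per numbered animal, from total RNA amplified before labelling. The animals were caged together in groups that the labels do not name, and p-values take the animals as independent. The comparison asks which transcripts of this epithelium differed after the 5 days of dosing.

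The arrays had medians between 8.21 and 8.35 log2 units and correlated at r between 0.959 and 0.992. Vehicle replicate 2 stood apart, with a mean r of 0.9745 with the other vehicle arrays, against 0.985 to 0.986 for the other vehicle arrays. It was the highest vehicle array for 23 of the 40 repair genes and the lowest for 4, while each of the other vehicle arrays was the highest or lowest for between 6 and 18. The 8 epithelial markers together had mean levels of 13.1 to 13.2 log2 units in DMPT arrays and 12.8 to 12.9 in vehicle arrays. Of these 8, the keratin genes Krt5 (0.60 ± 0.11), Krt8 (0.44 ± 0.09) and Krt7 (0.58 ± 0.14) rose and 0 fell, with 7 of the 8 differences above 0. Among all genes tested, 7.13% rose and 6.77% fell. The general epithelial genes Epcam and Cdh1 had mean levels of 13.5 and 13.2 in DMPT arrays, against 13.6 and 13.2 in vehicle arrays.

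After DMPT, the checkpoint kinase genes Chek1 and Chek2, 3 genes of homologous recombination, 2 of base excision, 1 Ku subunit gene and the ubiquitin ligase gene Rad18 were higher, and the endonuclease gene Ercc5 was lower. Of the 40 measured genes, 9 rose and 1 fell, and 30 did not pass the test (limma, Benjamini-Hochberg adjusted p under 0.05). That is 25.0% of the repair genes, where 13.9% of all genes tested were called; 22.5% were higher and 2.50% lower, where 7.13% and 6.77% of all genes were. The median difference of the 40 genes was 0.07 log2 units, and that of all genes was -0.01. Without vehicle replicate 2, 13 of the 40 rose and 1 fell, where 1307 of the 14217 genes tested were higher and 963 lower. For 10 of the 40 genes the groups did not overlap, 9 with all DMPT arrays above and 1 with all below, where 13.9% of all genes tested did not overlap, 7.58% with DMPT above and 6.29% with DMPT below. At an unadjusted p under 0.05, 14 of the 40 genes differed, 12 higher and 2 lower, where 28.2% of all genes did. Among the 53 probe sets, 9 rose and 1 fell, where 11.1% of all probe sets were called, 5.37% higher and 5.74% lower.

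**Figure D1:**
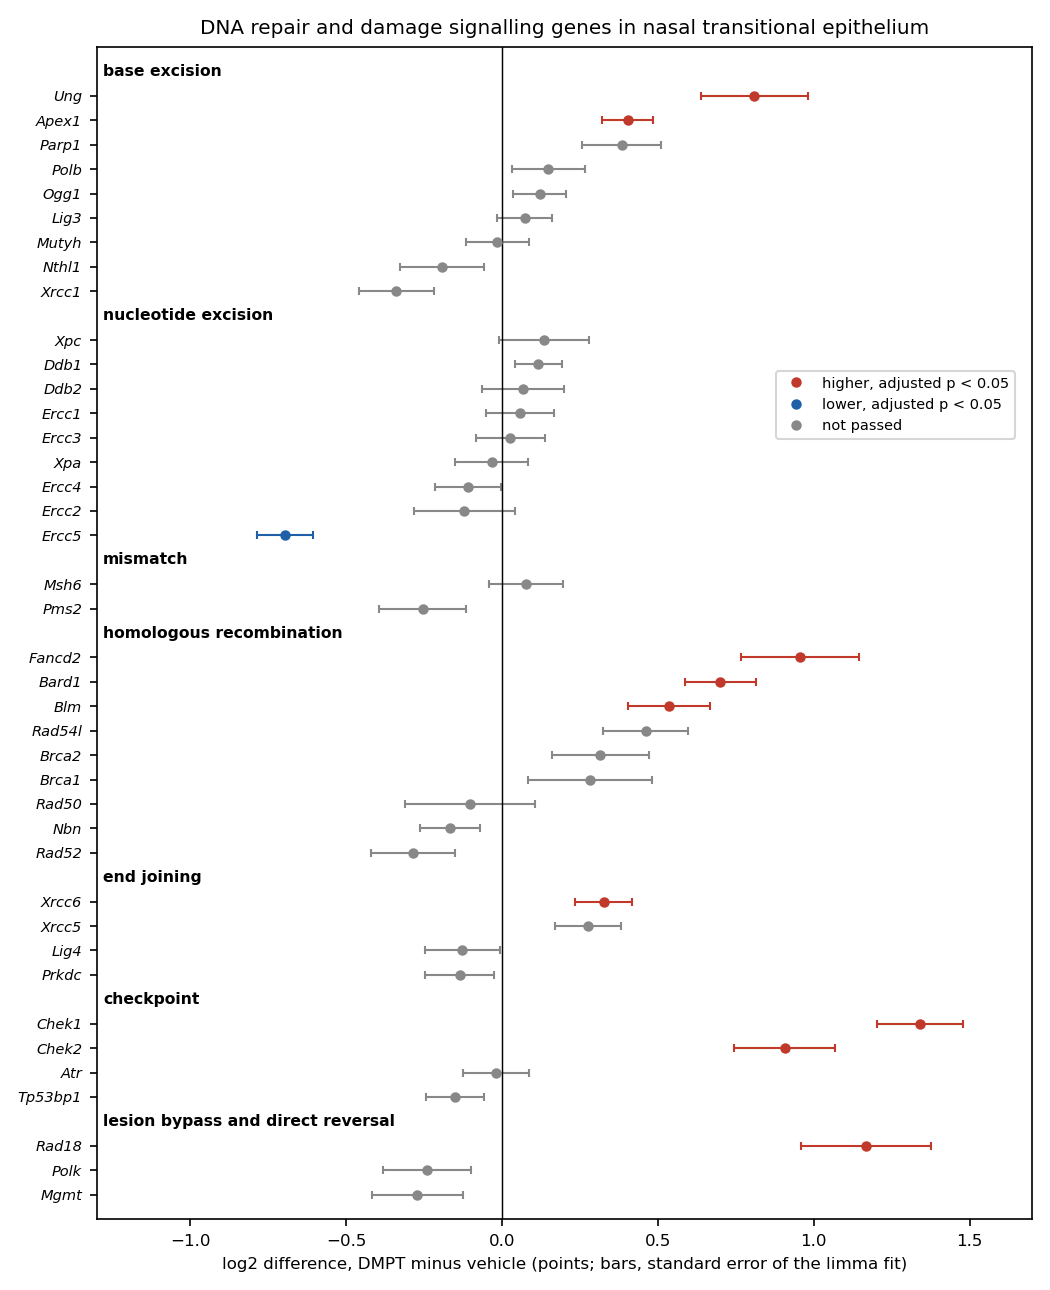
Log2 difference, DMPT minus vehicle, of the 40 measured repair genes, by role; points are the estimates and bars the standard errors of the limma fit (5 arrays per group). The 9 genes that rose lie between 0.33 and 1.34, Ercc5 lies at -0.70, and the 30 genes that did not pass lie between -0.34 and 0.46.

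The promoters of the rising genes are shown for the roles in which at least 2 genes passed in the same direction, since their letters can be set beside those of all genes. Windows of 300 bases, from 250 before to 50 after the annotated start, were taken from RefSeq on the rat assembly GRCr8 and were found for 33 of the 40 genes, several of them for Ercc4 and Pms2; Blm and Chek2 had none. Both strands were searched for TTTCCCGC and TTTGGCGC (forms of the E2F motif, the factor family that drives S phase genes), TTTGAA (the CHR motif of mitotic genes), CCAAT (the NF-Y motif) and TGACNNNGC (the core of the antioxidant response element). Capitals mark the E2F forms, read as TTTCCCGC or GCGGGAAA, and the NF-Y letters, read as CCAAT or ATTGG. The windows run 5′ to 3′ in the sense of the gene and lie at chr9:80143706-80144005 (minus strand) for Bard1, chr4:148234458-148234757 (plus strand) for Fancd2, chr8:44629794-44630093 (minus strand) for Chek1, chr15:26617976-26618275 (plus strand) for Apex1 and chr12:48153996-48154295 (minus strand) for Ung.
Bard1: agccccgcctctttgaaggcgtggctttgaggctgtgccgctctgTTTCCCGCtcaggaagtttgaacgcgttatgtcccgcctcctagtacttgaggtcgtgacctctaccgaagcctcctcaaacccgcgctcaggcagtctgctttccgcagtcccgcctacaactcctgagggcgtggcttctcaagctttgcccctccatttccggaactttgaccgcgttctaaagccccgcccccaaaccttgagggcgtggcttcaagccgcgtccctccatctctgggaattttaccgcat
Fancd2: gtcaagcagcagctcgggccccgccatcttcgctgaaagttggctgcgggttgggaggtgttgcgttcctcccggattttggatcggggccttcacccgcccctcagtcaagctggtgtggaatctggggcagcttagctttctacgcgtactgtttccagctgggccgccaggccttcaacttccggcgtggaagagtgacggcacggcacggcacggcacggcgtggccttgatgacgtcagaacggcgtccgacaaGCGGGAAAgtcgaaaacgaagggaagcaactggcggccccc
Chek1: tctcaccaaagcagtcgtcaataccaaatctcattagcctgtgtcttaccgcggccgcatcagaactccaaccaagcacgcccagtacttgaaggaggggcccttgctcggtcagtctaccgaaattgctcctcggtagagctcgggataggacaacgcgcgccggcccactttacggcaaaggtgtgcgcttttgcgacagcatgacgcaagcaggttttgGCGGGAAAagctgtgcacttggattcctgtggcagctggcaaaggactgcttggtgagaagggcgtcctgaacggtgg
Apex1: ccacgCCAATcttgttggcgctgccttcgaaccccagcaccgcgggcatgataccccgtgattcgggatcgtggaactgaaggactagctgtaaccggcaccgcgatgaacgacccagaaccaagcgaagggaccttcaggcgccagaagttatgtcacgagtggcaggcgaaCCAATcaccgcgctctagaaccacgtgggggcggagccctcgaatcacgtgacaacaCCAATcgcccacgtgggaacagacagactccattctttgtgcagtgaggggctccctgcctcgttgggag
Ung: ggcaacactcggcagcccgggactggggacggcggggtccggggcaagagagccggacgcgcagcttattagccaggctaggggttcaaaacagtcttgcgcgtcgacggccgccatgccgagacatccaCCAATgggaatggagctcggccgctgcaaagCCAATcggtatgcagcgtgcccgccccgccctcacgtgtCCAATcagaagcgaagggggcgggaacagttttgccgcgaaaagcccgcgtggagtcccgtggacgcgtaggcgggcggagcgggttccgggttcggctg

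The E2F letters TTTCCCGC were present in the windows of Bard1, Fancd2 and Chek1, that is in 3 of the 7 rising genes with a window. They began at base -205 in Bard1, at base 10 in Fancd2 and at base -28 in Chek1, with the annotated start as base 1 and the base before it as base -1; the last 2 lie on the strand opposite to the gene. Among the 25 matched genes that did not pass, Msh6 alone held them, and the window of Ercc5 did not. Either E2F form was present in 1.45% of the 33469 windows of all genes, TTTCCCGC in 0.974% and TTTGGCGC in 0.493%. CCAAT was present in 3 of the 7 rising genes (Apex1, Ung and Xrcc6), where 37.5% of all windows held it. TTTGAA was present in 2 of the 7 (Ung and Bard1) against 18.3% of all windows, and TGACNNNGC in 1 of the 7 (Chek1) against 12.1%. The search found 0 of these letters in the window of Rad18. CCAAT and TTTGAA are short, and none of the motifs searched contains another. A match describes letters and is not a binding site.

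Checkpoint signalling gave the largest change among the 40 genes. Chek1 encodes the kinase that answers to stalled replication forks through Atr. It measured 9.21, 9.26, 9.47, 9.11 and 8.92 log2 units in DMPT replicates 1 to 5, against 7.77, 8.23, 7.53, 7.85 and 7.90 in vehicle replicates 1 to 5. The lowest DMPT array lay above the highest vehicle array, which was replicate 2. Chek1 rose by 1.34 ± 0.14 (SE), or 2.53-fold (limma, adjusted p = 0.000153, n = 5 per group), and by 1.43 without vehicle replicate 2.

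Chek2 encodes the kinase that answers to double-strand breaks through Atm. It measured 6.62, 6.07, 6.20, 6.32 and 6.26 log2 units in DMPT arrays, against 5.65, 4.82, 5.58, 5.56 and 5.31 in vehicle arrays. The groups did not overlap, and vehicle replicate 2 was the lowest array, opposite to its place for Chek1. Chek2 rose by 0.91 ± 0.16 (limma, adjusted p = 0.00466) and by 0.77 without vehicle replicate 2. Its means of 6.29 after DMPT and 5.39 with vehicle were under each array's lower quartile (6.37 to 6.51), so the size of its rise is uncertain. The other measured checkpoint genes did not pass: the apical kinase gene Atr differed by -0.02 ± 0.11 (95% interval -0.25 to 0.21) and Tp53bp1, which encodes a platform protein at breaks, by -0.15 ± 0.09 (95% interval -0.36 to 0.06). Whether Chek1 differed from Atr in its change was not tested.

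Homologous recombination genes were higher in 3 of 9 cases and lower in 0, where 7.13% of all genes were higher and 6.77% lower. Their median difference was 0.31. Fancd2 encodes the Fanconi protein that is ubiquitinated at stalled or crosslinked forks. Its levels were 9.63, 9.24, 9.33, 9.25 and 8.81 in DMPT arrays, against 8.15, 8.86, 8.29, 7.85 and 8.34 in vehicle arrays. DMPT replicate 5 lay just below vehicle replicate 2, and otherwise every DMPT array was above every vehicle array. Fancd2 rose by 0.96 ± 0.19, or 1.94-fold (limma, adjusted p = 0.00778), and by 1.10 without vehicle replicate 2.

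Bard1, which encodes the partner that forms a ubiquitin ligase with Brca1, measured 9.29, 9.12, 8.95, 9.14 and 8.93 in DMPT arrays, against 8.33, 8.68, 8.13, 8.39 and 8.39 in vehicle arrays. The groups were apart, with vehicle replicate 2 again the highest vehicle array. Bard1 rose by 0.70 ± 0.11, or 1.63-fold (limma, adjusted p = 0.00260). Its partner Brca1 differed by 0.28 ± 0.20 and did not pass (adjusted p = 0.435), with a wide interval from -0.15 to 0.72. Vehicle replicate 2 measured 6.11 for Brca1 and the other vehicle arrays 6.77 to 7.26, and without that array the difference of Brca1 was 0.10. A fit that took RNA quality as a covariate gave -0.04 for Brca1.

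Blm, a helicase gene whose product dissolves joined recombination intermediates, measured 7.91, 8.01, 8.19, 8.25 and 7.98 in DMPT arrays, against 7.65, 7.89, 7.26, 7.27 and 7.60 in vehicle arrays. The lowest DMPT array exceeded the highest vehicle array by little. Blm rose by 0.54 ± 0.13 (limma, adjusted p = 0.0242). Its call was lost without DMPT replicate 3 or 4 or vehicle replicate 3 or 4, with differences of 0.47 to 0.50 and adjusted p between 0.0516 and 0.0652.

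Rad54l, a motor gene of strand exchange, measured 7.46, 7.34, 7.66, 7.48 and 7.26 in DMPT arrays, against 6.70, 7.19, 7.11, 7.24 and 6.65 in vehicle arrays. All DMPT arrays were above all vehicle arrays, yet the difference of 0.46 ± 0.14 missed the threshold (limma, adjusted p = 0.0516). It passed without vehicle replicate 2 (0.51, adjusted p = 0.0360) and without vehicle replicate 4 (0.53, adjusted p = 0.0427). With all 10 arrays, Rad54l passed with array weights, with arrays centred on their medians and with the replicate number as a block. The mean of all probe sets and the fit without the dimmest 25% of probe sets also passed it. In these fits the limma adjusted p lay between 0.0229 and 0.0467. Brca2, which loads the recombinase onto single strands, differed by 0.31 ± 0.16 and passed only without vehicle replicate 2 (0.44, adjusted p = 0.0328). The break-sensing genes Rad50 and Nbn and the strand annealing gene Rad52 had differences of -0.10 ± 0.21, -0.17 ± 0.10 and -0.28 ± 0.13, and none of them passed. For Nbn, vehicle replicate 3 lay far above the other vehicle arrays. Rad50 measured 10.43 in vehicle replicate 2 and 9.18 to 9.70 in the other vehicle arrays, and its difference without replicate 2 was 0.11. Further probe sets of Rad50 differed by 0.25 ± 0.15 and 0.06 ± 0.14 and did not pass.

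**Figure D2:**
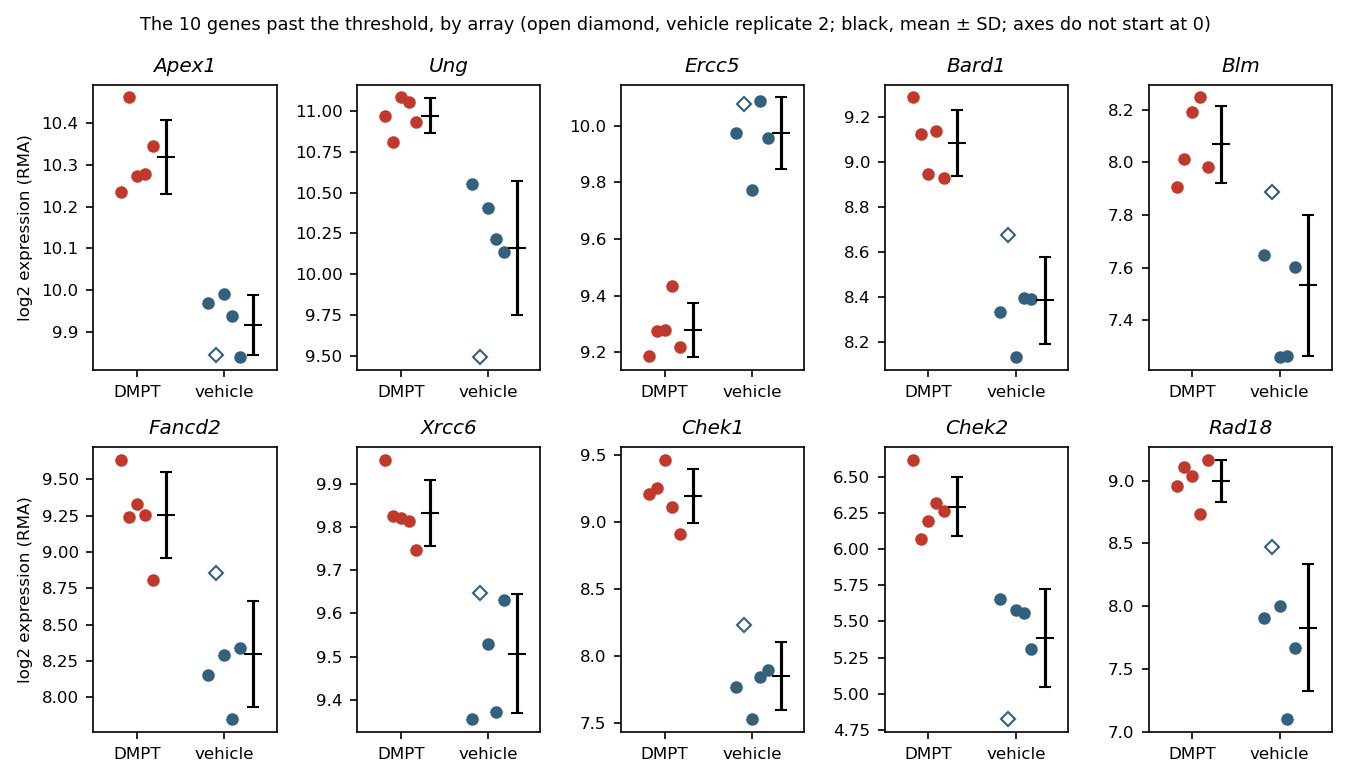
Log2 expression of the 10 repair genes past the threshold in each DMPT array (red, left) and vehicle array (blue, right), with the open diamond for vehicle replicate 2 and black bars for the mean ± SD (n = 5 per group); the vertical axes do not start at 0. The groups overlap for Fancd2 alone, where DMPT replicate 5 lies at 8.81 and vehicle replicate 2 at 8.86.

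Base excision genes were higher in 2 of 9 cases and lower in 0, where 7.13% of all genes were higher and 6.77% lower. Their median difference was 0.12. Ung encodes the glycosylase that removes uracil and also acts behind the replication fork. Its levels were 10.97, 10.81, 11.08, 11.05 and 10.93 in DMPT arrays, against 10.55, 9.49, 10.41, 10.21 and 10.14 in vehicle arrays. The DMPT arrays lay close together and above all vehicle arrays, of which replicate 2 was far the lowest. Ung rose by 0.81 ± 0.17, or 1.75-fold (limma, adjusted p = 0.0112). Without vehicle replicate 2 the rise was 0.64 (adjusted p = 0.00288). The call was lost with the 3′ to 5′ RNA quality ratio as a covariate (0.68, adjusted p = 0.0628).

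Apex1, which encodes the endonuclease that cuts at the emptied base site, measured 10.24, 10.46, 10.27, 10.28 and 10.35 in DMPT arrays, against 9.97, 9.84, 9.99, 9.94 and 9.84 in vehicle arrays. The vehicle arrays spanned a narrow range, and all of them lay below the DMPT arrays. Apex1 rose by 0.40 ± 0.08, or 1.32-fold (limma, adjusted p = 0.00875). A second, dimmer probe set of Apex1 differed by 0.56 ± 0.24 and did not pass (adjusted p = 0.177), with vehicle replicate 2 at 7.31 and the other vehicle arrays at 8.41 to 8.61.

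Parp1, the sensor of strand breaks that adds ADP-ribose chains, measured 10.05, 10.49, 10.24, 10.30 and 10.18 in DMPT arrays, against 9.96, 10.13, 9.67, 9.58 and 10.02 in vehicle arrays. One DMPT array lay below the highest vehicle array, replicate 2. The difference of 0.38 ± 0.13 missed the threshold (limma, adjusted p = 0.0768). With vehicle replicate 2 left out, Parp1 passed (0.45, adjusted p = 0.0357). It also passed with array weights (0.46, limma, adjusted p = 0.0175) and with arrays centred on their medians (0.42, limma, adjusted p = 0.0400). The scaffold gene Xrcc1 differed the other way, by -0.34 ± 0.12 (adjusted p = 0.0987), with levels of 10.5 to 10.9 in DMPT arrays and 10.7 to 11.3 in vehicle arrays. It passed only without vehicle replicate 3 (-0.41, adjusted p = 0.0498).

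The remaining base excision genes did not pass. The gap-filling polymerase gene Polb differed by 0.15 ± 0.12 and the ligase gene Lig3 by 0.07 ± 0.09. Among the glycosylase genes that deal with oxidised bases, Ogg1 differed by 0.12 ± 0.08, Mutyh by -0.01 ± 0.10 and Nthl1 by -0.19 ± 0.13. The highest 95% bound among these 5 genes was 0.40, for Polb, and the lowest was -0.48, for Nthl1, for which vehicle replicate 2 lay far above the other vehicle arrays.

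Nucleotide excision genes gave the single fall, in 1 of 9 cases, where 6.77% of all genes were lower. Ercc5 encodes the nuclease that cuts on the 3′ side of the lesion. It measured 9.19, 9.28, 9.28, 9.43 and 9.22 in DMPT arrays, against 9.97, 10.08, 9.78, 10.09 and 9.96 in vehicle arrays. The highest DMPT array lay well below the lowest vehicle array. The level of Ercc5 fell by 0.70 ± 0.09 log2 units, a level 1.62-fold lower after DMPT (limma, adjusted p = 0.000676). The call was kept without each array in turn, with differences from -0.75 to -0.67, and vehicle replicate 2 was not the highest vehicle array here.

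The other 8 nucleotide excision genes had differences between -0.12 and 0.13, and their adjusted p lay between 0.382 and 0.922. These were the lesion recognition genes Xpc (0.13 ± 0.14), Ddb1 (0.12 ± 0.07) and Ddb2 (0.07 ± 0.13), the lesion-verifying gene Xpa (-0.03 ± 0.12), the helicase genes Ercc2 (-0.12 ± 0.16) and Ercc3 (0.03 ± 0.11) of the repair and transcription factor TFIIH, and the genes of the nuclease that cuts on the 5′ side, Ercc1 (0.06 ± 0.11) and Ercc4 (-0.11 ± 0.11). The 95% intervals of the representing probe sets reached from -0.48 to 0.45 at the widest. Differences of the size of that of Ercc5 lay outside them. Another bright probe set of Ddb1 differed by 0.36 ± 0.21 and did not pass, and its 95% interval of -0.09 to 0.81 reached that size. Vehicle replicate 2 lay far above the other vehicle arrays for Ercc2. A probe set annotated to both Ercc4 and Ercc4l1 was not counted.

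End joining genes were higher in 1 of 4 cases and lower in 0, where 7.13% of all genes were higher and 6.77% lower. Xrcc6, which encodes the smaller subunit of the Ku ring that clasps a broken end, measured 9.96, 9.83, 9.82, 9.81 and 9.75 in DMPT arrays, against 9.35, 9.65, 9.53, 9.37 and 9.63 in vehicle arrays. The groups did not overlap, but the lowest DMPT array and the highest vehicle array were close. Xrcc6 rose by 0.33 ± 0.09, or 1.25-fold (limma, adjusted p = 0.0397). Its call held without vehicle replicate 2 (0.36, adjusted p = 0.0198) and without vehicle replicate 5, and was lost without any of the other 8 arrays, with differences from 0.29 to 0.35 and adjusted p up to 0.0878.

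The larger Ku subunit gene Xrcc5 differed by 0.28 ± 0.11 (adjusted p = 0.122). Its levels were 10.76, 10.87, 10.67, 10.75 and 10.76 in DMPT arrays, against 10.41, 10.80, 10.30, 10.37 and 10.56 in vehicle arrays. All DMPT arrays lay above every vehicle array other than replicate 2, and without that array Xrcc5 passed (0.36, adjusted p = 0.0161). It also passed with array weights (0.35). A second and dim probe set of Xrcc5 differed by -0.07 ± 0.14. The DNA-dependent kinase gene Prkdc differed by -0.14 ± 0.11 and the ligase gene Lig4 by -0.13 ± 0.12, and neither passed.

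Rad18, whose product marks the replication clamp PCNA with ubiquitin at stalled forks, measured 8.95, 9.10, 9.03, 8.73 and 9.17 in DMPT arrays, against 7.91, 8.47, 8.00, 7.10 and 7.67 in vehicle arrays. The DMPT arrays lay within a narrow range above all vehicle arrays, which were widely spread. Rad18 rose by 1.17 ± 0.21, or 2.25-fold (limma, adjusted p = 0.00450), and by 1.33 without vehicle replicate 2. The bypass polymerase gene Polk differed by -0.24 ± 0.14 (95% interval -0.55 to 0.07) and the gene Mgmt, whose product lifts alkyl groups off guanine, by -0.27 ± 0.15 (95% interval -0.59 to 0.05). Neither passed. In mismatch repair, the recognition gene Msh6 differed by 0.08 ± 0.12 and the nuclease gene Pms2 by -0.25 ± 0.14, and 0 of these 2 genes passed in the limma fit, also at an unadjusted p under 0.05.

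Of the 40 genes, 11 were measured by more than 1 probe set. They had 13 further probe sets, of which 0 passed and 7 had the sign of the representing one (the smallest adjusted p was 0.177, for Apex1). Spread differed between the groups. The SD among arrays was larger with vehicle for 35 of the 40 genes, with a median SD of 0.14 after DMPT and 0.23 with vehicle. Without vehicle replicate 2 the vehicle median was 0.14 and the vehicle SD was larger for 24 of the 40.

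**Figure D3:**
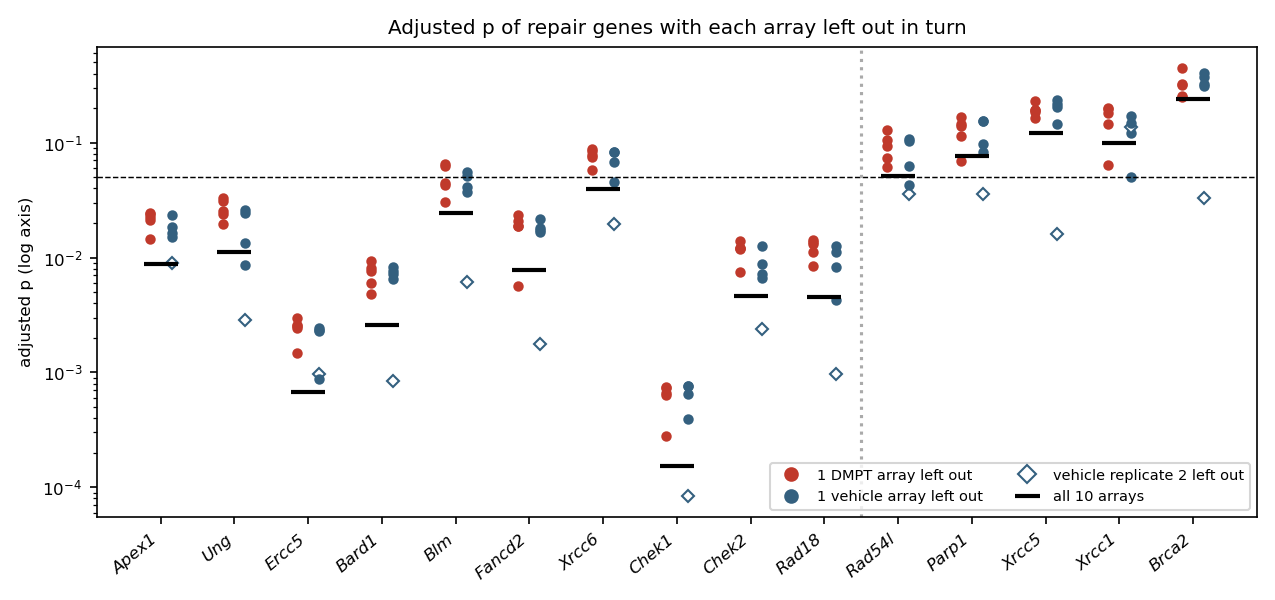
Adjusted p (log axis) of the 10 repair genes past the threshold and, right of the dotted line, of 5 genes that passed when 1 array was left out; black bars are the fit of all 10 arrays, red and blue points leave out 1 DMPT or 1 vehicle array, open diamonds leave out vehicle replicate 2 and the dashed line is the threshold of 0.05. The points of Chek1 stay below 0.001, and those of Xrcc6 and Blm lie on both sides of the line.

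Other genes of these pathways were read from a second list of 85 genes, of which 67 were measured. Of these, 8 rose and 3 fell, or 11.9% and 4.48%, where 7.13% of all genes rose and 6.77% fell. In either direction 16.4% were called, near the 13.9% of all genes. Among the 86 probe sets of these genes, 13 rose and 3 fell, where 5.37% of all probe sets were higher and 5.74% lower. Some of the 13 were further probe sets of genes that did not pass. The median difference of the 67 genes was 0.09. The flap nuclease gene Fen1, which trims strands in replication and base excision, rose by 0.94 ± 0.13 (limma, adjusted p = 0.00114), and Tdg, a glycosylase gene for thymine mispairs, by 0.47 ± 0.09. Timeless and Clspn, whose products protect the replication fork and relay signals to Chek1, rose by 0.92 ± 0.17 and 0.84 ± 0.17. The helicase gene Recql4 rose by 0.64 ± 0.11, the resolvase gene Gen1 by 0.80 ± 0.18, the exonuclease gene Exo1 by 1.52 ± 0.42 and the histone gene H2ax by 0.55 ± 0.15. Exo1 and Gen1 were dim, with means of 6.73 and 5.34 in DMPT arrays, against 5.22 and 4.55 in vehicle arrays.

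The 3 genes of this list that fell were Fance, a Fanconi core complex gene, at -0.49 ± 0.08 (limma, adjusted p = 0.00206), Aptx, which mends failed ligations, at -0.46 ± 0.11, and Ube2b at -0.34 ± 0.09. Ube2b encodes a ubiquitin-conjugating enzyme that works with Rad18. Its close relative Ube2a differed by 0.27 ± 0.09 and did not pass (adjusted p = 0.0815), and 3 further probe sets of Ube2b did not pass. The 12 further nucleotide excision genes gave 0 calls in the limma fit, and 3 had an unadjusted p under 0.05. Among their 15 probe sets 1 rose, where 5.37% of all probe sets were higher. It was a dimmer probe set of Gtf2h1 (0.58 ± 0.15, limma, adjusted p = 0.0273). The probe set that stood for Gtf2h1 differed by 0.32 ± 0.12 and did not pass (limma, adjusted p = 0.122). The 5 further end joining genes gave 0 calls, and 0 had an unadjusted p under 0.05. The count of rising genes in the list was 14 without vehicle replicate 2, where 1307 of the 14217 genes tested were higher.

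Genes of the cell cycle were read beside the repair genes, from a list of their own. Of 29 measured, 25 rose and 0 fell, or 86.2%, where 7.13% of all genes rose and 6.77% fell. The median difference was 0.89, and 25 rose without vehicle replicate 2. Of the 29 differences 28 were above 0, and the 1 below 0 was -0.72 and did not pass. The mean of these genes, as a log2 difference from the vehicle mean, lay between 0.70 and 0.91 in DMPT arrays and between -0.32 and 0.38 in vehicle arrays, with vehicle replicate 2 the highest vehicle array. The same mean over the 9 homologous recombination genes lay between 0.22 and 0.39 in DMPT arrays and between -0.14 and 0.21 in vehicle arrays, and over the 4 checkpoint genes between 0.44 and 0.60 in DMPT arrays and between -0.08 and 0.08 in vehicle arrays. Over the 9 nucleotide excision genes it lay between -0.19 and 0.03 in DMPT arrays and between -0.13 and 0.20 in vehicle arrays. Pcna, the clamp gene named here after its values were seen because Rad18 acts on its product, rose by 0.49 ± 0.11 (limma, adjusted p = 0.0156). The part of cell division in the rise of the repair genes was not tested.

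**Figure D4:**
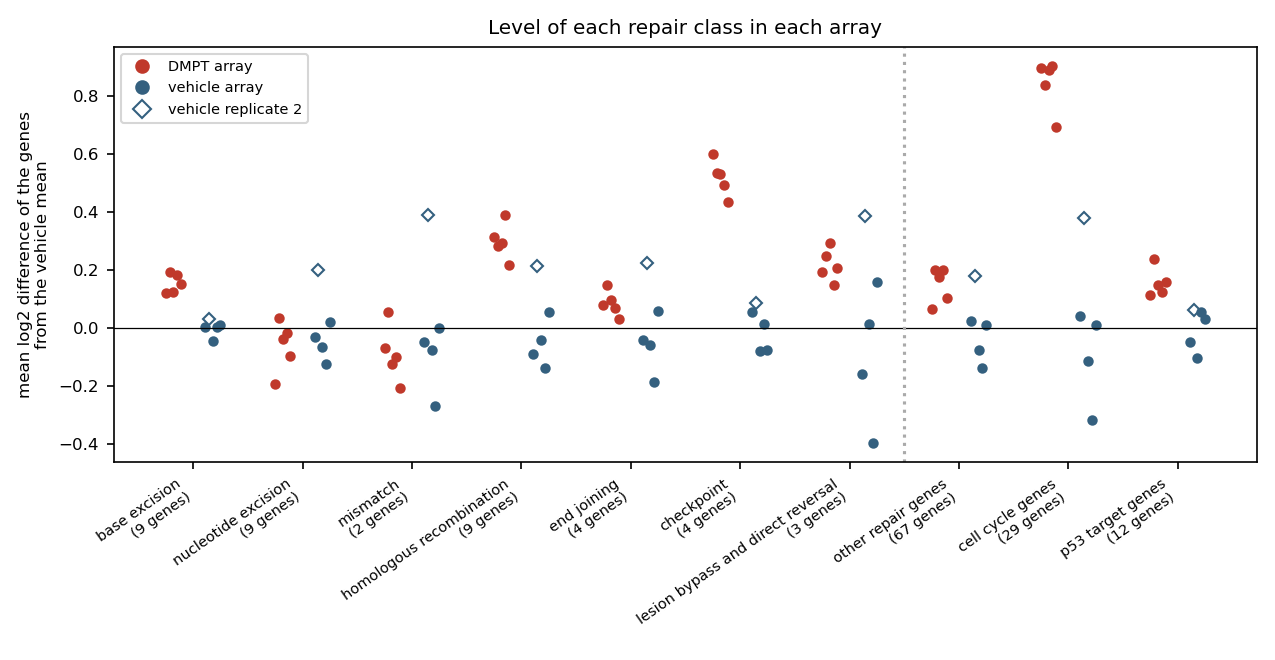
Mean log2 difference from the vehicle mean of the genes of each role in each array, DMPT arrays red and left, vehicle arrays blue and right, with the open diamond for vehicle replicate 2; right of the dotted line are the other repair genes, the cell cycle genes and the p53 target genes. The DMPT arrays lie above all vehicle arrays for base excision, homologous recombination, checkpoint, cell cycle and p53 target genes, and the groups overlap for nucleotide excision, where DMPT replicate 1 lies lowest.

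Of 12 measured p53 target genes, 1 rose and 0 fell, or 8.33%, near the 7.13% of all genes that were higher and below the 13.9% called in either direction. Their median difference was 0.21, and that of all genes was -0.01. Of the 12 differences 9 were above 0 and 3 below. The mean of these genes, as a log2 difference from the vehicle mean, lay between 0.11 and 0.24 in DMPT arrays. In vehicle arrays it lay between -0.10 and 0.06. Phlda3, a brake on AKT signalling, rose by 0.66 ± 0.09 (limma, adjusted p = 0.000643). Tp53inp1, whose product promotes p53 activity, differed by 0.53 ± 0.21 (limma, adjusted p = 0.143), the nuclease gene Aen by 0.23 ± 0.11 and Mdm2, the ubiquitin ligase gene that restrains p53, by -0.24 ± 0.10. The cell cycle inhibitor gene Cdkn1a differed by 0.22 ± 0.11, and none of these 4 genes passed.

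Markers of epithelial cell types (ciliated, basal and squamous, secretory) and of other cells that captured tissue can hold also differed between the groups. The counts below stand beside 7.13% of all genes tested that rose and 6.77% that fell. Endothelial markers rose in 5 of 7 cases, with mean log2 levels of 7.18 to 8.30 in DMPT arrays and 6.16 to 7.19 in vehicle arrays. Motile cilia markers fell in 5 of 6 cases, with mean levels of 9.37 to 10.9 in DMPT arrays and 10.7 to 11.9 in vehicle arrays. Basal and squamous markers rose in 5 of 9 cases (10.9 to 11.6 in DMPT arrays and 9.56 to 9.85 in vehicle arrays). Krt5 was counted in this list and also among the epithelial markers. Leukocyte markers rose in 4 and fell in 2 of 10 cases (8.95 to 9.44 in DMPT arrays and 8.97 to 9.15 in vehicle arrays). Secretory markers fell in 3 of 9 cases (9.40 to 10.3 in DMPT arrays and 9.99 to 10.7 in vehicle arrays). Olfactory neuron markers rose in 1 and fell in 1 of 6 cases (7.71 to 8.44 in DMPT arrays and 7.77 to 8.18 in vehicle arrays). Of the stromal markers, 0 of 6 passed in the limma fit, also at an unadjusted p under 0.05 (9.84 to 10.8 in DMPT arrays and 9.94 to 10.8 in vehicle arrays). The part of these cell types in the differences of the repair genes was not tested, and in captured tissue fewer cells of a type and less RNA per cell cannot be told apart.

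The RNA quality ratio sets probe sets at the 3′ end of Gapdh and beta-actin against those at the 5′ end. On the log2 scale it lay between 0.87 and 1.30 in DMPT arrays and between 1.17 and 1.497 in vehicle arrays. The means were 1.10 in DMPT arrays and 1.28 in vehicle arrays, and the two-sided exact permutation p over 252 labelings was 0.143 (n = 5 per group). With the ratio as a covariate 8 repair genes rose and 1 fell, and 8 of the 10 calls were kept: those of Ung and Xrcc6 (0.35, adjusted p = 0.0807) were lost, and Parp1 passed (0.53, adjusted p = 0.0367).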

How the data were processed

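The table deposited by the authors holds log2 values for each probe set. They were made with RMA, the robust multi-array average, according to the submitters' processing notes. This method corrects background, equalises the arrays' distributions and summarises the probes of a set. No source used here gives its version, a probe filter or a genome build. Per the labels' protocols, amplification used the WT-Ovation Pico kit, followed by biotin labelling. Part of the extraction protocol describes samples of another kind, and its yields were not used. The number of arrays limits the precision.

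After 57 of 31099 probe sets were set aside as controls, 31042 were tested with limma 3.58.1 (R 4.3.3), using lmFit and eBayes on treatment alone, two-sided and without a filter. Benjamini-Hochberg adjustment ran over all of them, with a threshold of 0.05. Of these probe sets, 20826 had 1 gene symbol in the platform annotation, 436 had several and 9780 had none; those with several or none were tested but not named. Values after ± are standard errors of this fit unless marked SD, and each difference is DMPT minus vehicle on the log2 scale. ORIOGEN, the authors' test per the series' design text, was not run here.

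The repair genes, the other lists and the tests were chosen with earlier results of these data known. Every repair gene past the threshold is named with its values, then in each role those of smallest p up to 4 in all, and the remaining repair genes by their difference. Of every other list, and of each role in the second repair list, at most 4 genes are named, by smallest p. Pcna, Cdkn1a, Epcam and Cdh1 fall outside this rule and were chosen for their known roles after their values were seen. Gtf2h1 is named for a further probe set that passed. Alternatives covered the choice of probe set, dim probe sets, an intensity trend, array weights, centring, an RNA quality covariate, the replicate number as a block and each array left out. The fit was tested on simulated data.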

Additional observations from a re-analysis of the deposited data

Results flagged for a closer look

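In 3 of the 80 groups of 5 arrays examined, 1 for each of the 40 genes and each group, a single array lay far from the others by Dixon's ratio of gap to range (critical value 0.71). Chance gives about 1 such group in 20. The glycosylase gene Nthl1 measured 10.46 log2 units in vehicle replicate 2, where the other vehicle arrays measured 9.74 to 9.87. The helicase gene Ercc2 measured 9.34 in vehicle replicate 2, where the others measured 8.501 to 8.607. The break-sensing gene Nbn measured 10.37 in vehicle replicate 3, where the others measured 10.15 to 10.20. None of these 3 genes passed the test with all arrays or with any 1 array left out.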

How the results depend on the processing

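Over the 40 genes and the alternatives run, 687 of 719 gene and setting pairs kept their call, 17 lost it, 15 gained it and 0 turned a called direction. Of the 40 genes, 30 were not called with all arrays, so most of the kept pairs stayed uncalled. The 17 losses could come only from the 10 called genes. The calls of Chek1, Rad18, Fancd2, Bard1 and Ercc5 held in every alternative. Chek2 was not tested without the dimmest 25% of probe sets. Apex1 lost its call when the probe set with the lowest mean stood for each gene. Leaving out 1 array at a time gave 7 to 13 repair genes higher and 1 to 2 lower (also 1 to 2 probe sets lower), with 2 lower without vehicle replicate 3. The same fits gave 688 to 1307 of the 14217 genes tested higher and 542 to 963 lower. Both the 13 and the 1307 came without vehicle replicate 2. The median of the end joining genes was -0.10 with the lowest-mean probe set, and that of the checkpoint genes was -0.019 without the dimmest 25%, which removed Chek2. The second repair list gave 8 genes higher with all arrays, where 1013 of the 14217 genes tested were higher. The mean of all probe sets gave 15, where 1106 of all genes were higher. Array weights gave 16, where 1403 were, and arrays centred on their medians gave 13, where 1197 were. With 1 array left out this list gave 6 to 14 genes higher and 1 to 3 lower, with 1 lower without DMPT replicate 1 or 3. Over all genes, 846 were higher and 456 lower when the RNA quality ratio was a covariate, and 688 higher and 542 lower without DMPT replicate 3. Same-numbered arrays had deviation correlations of 0.07, 0.22, 0.23, -0.07 and -0.01, so the numbers were not taken to pair the animals. With the replicate number as a block, 8 repair genes were higher and 1 was lower. The block lost the calls of Blm (adjusted p = 0.0619) and Xrcc6 (adjusted p = 0.0984), gained that of Rad54l and gave 923 genes higher and 987 lower over all genes. The causes of these changes were not tested. Signal limits Chek2 most among the 10 called genes.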
